A study of Mus musculus with 8 samples.

Results

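The genes described here are 8 steps and regulators of cholesterol synthesis, chosen by name from the 22173 genes of the deposited table: Hmgcs1, Idi1, Fdft1, Sqle, Lss and Cyp51, which encode enzymes of the route, and Srebf2 and Insig1, which control it. All 8 were found. They were measured by mRNA sequencing in heart RNA of C57BL/6J mice whose left anterior descending coronary artery had been tied, an operation that causes a myocardial infarct. A group of 4 libraries was labelled vehicle (MI-1 to MI-4) and another of 4 was labelled DAPA (MIS-1 to MIS-4), and the second came from mice that received DAPA at 1 mg/kg daily over the 4 weeks after the ligation. DAPA is the usual short form of dapagliflozin, an inhibitor of the renal glucose transporter SGLT2. No group without an infarct was among the samples, so every value is from an operated heart. The labels give neither age nor sex, nor the part of the heart taken, nor whether each library is a separate animal, so p-values measure the spread between these libraries.

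Cells make cholesterol from acetyl-CoA by way of mevalonate, isoprenoids, squalene and lanosterol. When sterols in the endoplasmic reticulum run low, SCAP carries the membrane-bound factor SREBP-2 to the Golgi, where proteases release it to switch on genes of synthesis and uptake. INSIG proteins hold SCAP back when sterols are plentiful, and the Insig1 gene is itself a target of SREBP, as are the genes of the route. Heart cells obtain cholesterol both by this route and by uptake of lipoproteins.

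SREBP acts at promoters together with NF-Y and SP1, so the promoters were read for the sites of these factors. The set of RefSeq promoters used here (GRCm38.p6) held 6 of the 8 genes, all except Sqle and Fdft1. The 250 bases before the annotated start were searched on both strands for TCACNCCAC, the core of the sterol regulatory element, for CCAAT, the NF-Y box, for GGGCGG, the GC box of SP1, and for CACGTG, an E-box. The promoters of Hmgcs1, Insig1 and Srebf2 are printed, 5′ to 3′ on the strand of the gene, as those of the most abundant enzyme of the 8 and of both regulators. Capitals mark the sterol element core and NF-Y boxes, on either strand.
Hmgcs1 (chr13:119690101-119690350, plus strand): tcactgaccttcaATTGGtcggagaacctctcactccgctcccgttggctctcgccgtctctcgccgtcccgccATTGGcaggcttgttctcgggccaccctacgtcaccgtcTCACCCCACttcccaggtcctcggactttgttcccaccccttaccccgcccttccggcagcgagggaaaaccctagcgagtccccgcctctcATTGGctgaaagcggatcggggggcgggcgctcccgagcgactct
Insig1 (chr5:28071162-28071411, plus strand): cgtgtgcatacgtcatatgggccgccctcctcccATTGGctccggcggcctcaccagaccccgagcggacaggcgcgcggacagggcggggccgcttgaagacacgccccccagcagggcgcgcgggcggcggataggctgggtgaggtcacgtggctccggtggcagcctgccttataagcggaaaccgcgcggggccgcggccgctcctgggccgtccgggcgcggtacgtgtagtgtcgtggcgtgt
Srebf2 (chr15:82147019-82147268, plus strand): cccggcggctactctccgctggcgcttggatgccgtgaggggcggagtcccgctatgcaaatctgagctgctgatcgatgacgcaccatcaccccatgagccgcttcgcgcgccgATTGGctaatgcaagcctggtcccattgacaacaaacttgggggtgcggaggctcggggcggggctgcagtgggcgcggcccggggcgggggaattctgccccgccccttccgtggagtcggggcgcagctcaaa

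The Hmgcs1 promoter held the sterol element core TCACCCCAC, from 137 to 129 bases before the start, and 3 NF-Y boxes. That core was found in 1 of the 6 promoters and in 1.04% of 27025 promoters of the same length. All 6 had an NF-Y box, against 34.5% of all promoters, and all 6 a GC box, against 32.9%. Among 9194 promoters of genes tested for expression here, the shares were 36.1% and 60.4%. An E-box was found in 1 of 6 (Insig1), against 6.05% of all. None of the matches in the 3 printed promoters overlapped another. Only exact matches were counted, so variants of the sterol element core were missed. The Srebf2 promoter, for example, holds TCACCCCAT, which differs from the core in its last letter. A match describes letters in this window and says nothing of binding in these hearts.

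Levels are given as FPKM, the fragments mapped to a gene scaled by transcript length and by library size, as computed by the authors, so they can be compared between genes. The libraries were similar in depth, with 24939013 to 26768206 reads per library recovered from the steps of the FPKM values. Between 15687 and 15799 genes were above 0. The groups differed widely: of 11496 genes tested with limma-trend on log2(FPKM + 1), 1106 were higher and 1006 lower with DAPA at a Benjamini-Hochberg adjusted p below 0.05. Cell type markers moved with the groups. All 10 tested atrial cardiomyocyte markers of 10 listed were higher, with a median log2 change of 2.86. Their summed level was 8114 to 9058 FPKM in vehicle and 12963 to 13672 FPKM in DAPA libraries. Of 11 tested adipocyte markers of 12 listed, 10 were lower, and the median log2 change was -1.14 (summed level 2879 to 3152 FPKM against 2399 to 2497 FPKM). Sums follow the most abundant markers, so they understate the typical change in these lists. Of 8 endothelial markers 7 were higher and 1 lower, with sums of 486.3 to 503.6 FPKM against 579 to 597 FPKM. Sums of 8 ventricular markers overlapped, at 13151 to 13660 FPKM and 12451 to 13402 FPKM. No marker in these lists was at 0 in every library. In bulk tissue, fewer cells of a type and less RNA per cell cannot be told apart, and the part of these shifts in the values below was not tested.

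Taken gene by gene, no change with DAPA was detectable in the transcripts of the 8 genes, while their mean profile lay slightly higher in every DAPA library. None of the 6 that passed the filter on low values (a mean of at least 1 FPKM in a group) was called by limma-trend, where 18.4% of all tested genes were called, and none had an unadjusted p below 0.05, against 31.3% of all. Idi1 and Lss lay below that filter, and Sqle passed it only through the DAPA group. All 8 had a higher mean with DAPA, by small ratios of 1.02 to 1.23 with a median of 1.08, beside a median ratio of 1.01 over all genes tested, of which 52.8% had a ratio above 1. In none of the 8 were the groups apart. Among all genes tested, which leave out Idi1 and Lss, the groups did not overlap in 22.1% (12.1% higher and 9.99% lower with DAPA). With so few genes, counts of 0 beside such shares show little. With each gene centred on its own mean of log2(FPKM + 1), the mean over the 8 genes lay between -0.0599 and -0.0148 in the vehicle libraries and between 0.0187 and 0.0573 in the DAPA libraries. The groups did not overlap in that mean, which is a description with no test. Over all genes tested the same mean overlapped, at -0.00852 to 0.00245 in vehicle and -0.0082 to 0.0159 in DAPA libraries. A mean over so many genes, scaled by library size, stays near 0, so it is no background for a mean over 8 genes. The 8 genes were also chosen with earlier results of these data known. The authors' deposited table likewise lists q-values of 0.302 to 0.920 for the 8 genes, none below 0.05, where 17.4% of its genes with a q-value are below 0.05.

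**Figure D1:**
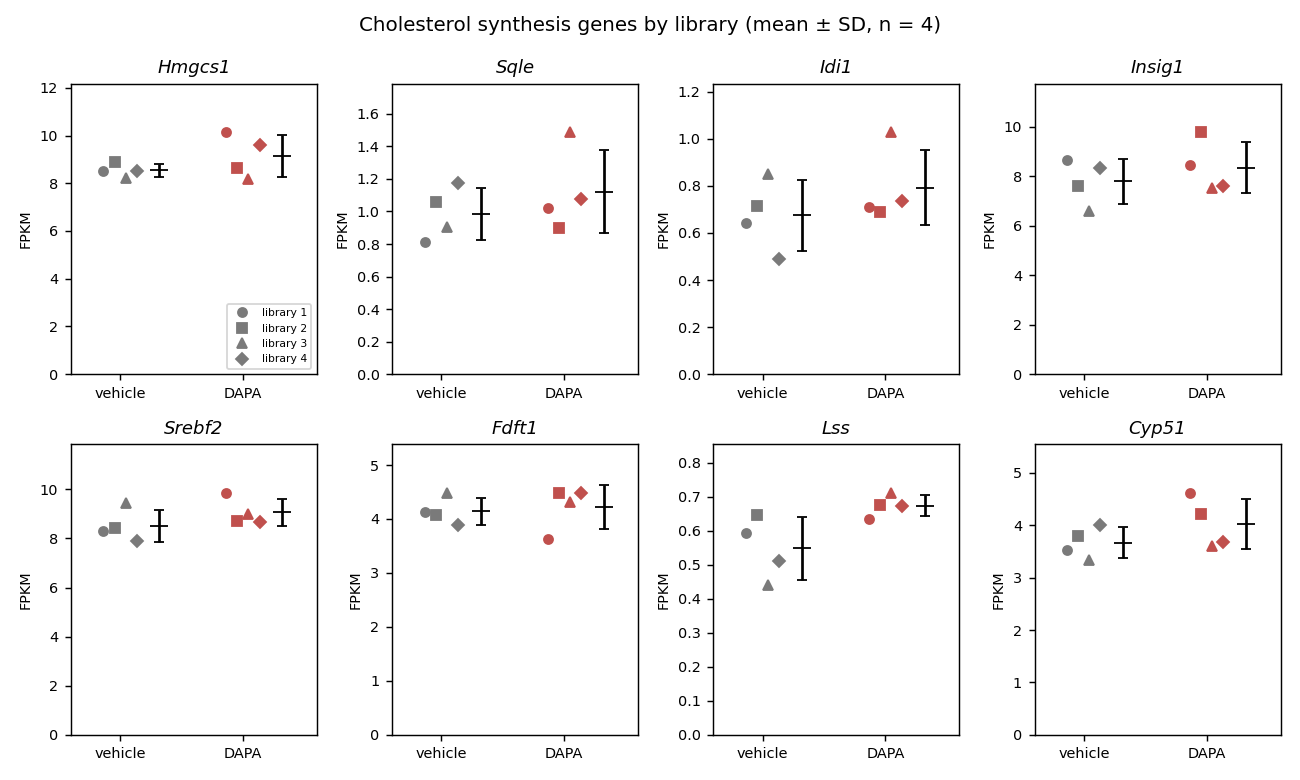
FPKM of each of the 8 genes (vertical axes, each from 0) in the 4 vehicle (grey) and 4 DAPA libraries (red). Marker shapes give the library number within its group, and bars the mean ± SD (n = 4). The groups overlap in every panel.

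By level the 8 genes formed 3 tiers that did not overlap in any library. Hmgcs1, Srebf2 and Insig1 were the most abundant, with means over the 8 libraries of 8.85, 8.78 and 8.08 FPKM, and their ranges (8.19 to 10.1, 7.88 to 9.86 and 6.60 to 9.79) overlapped each other. Fdft1 at 4.18 FPKM (3.63 to 4.49) and Cyp51 at 3.85 FPKM (3.35 to 4.62) followed, again not separable from each other. Sqle, Idi1 and Lss were lowest, at 1.05, 0.733 and 0.611 FPKM. The lowest tier thus holds squalene epoxidase, a step that is often rate-limiting in the later part of the route.

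Of the enzymes before squalene, Hmgcs1 (NCBI Gene 208715) encodes cytosolic HMG-CoA synthase, which joins acetyl-CoA to acetoacetyl-CoA. It measured 8.53, 8.88, 8.21 and 8.54 FPKM in the vehicle libraries and 10.1, 8.66, 8.19 and 9.62 FPKM in the DAPA libraries. DAPA libraries 1 and 4 lay above every vehicle library and DAPA library 3 below all of them. The means were 8.54 ± 0.276 and 9.15 ± 0.889 FPKM (SD, n = 4), a ratio of 1.07 and a log2 change of 0.09 (95% interval -0.05 to 0.22, limma-trend adjusted p = 0.378).

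Idi1 (319554) encodes isopentenyl-diphosphate isomerase, which supplies the isoprene unit that starts each chain. It measured 0.643, 0.715, 0.851 and 0.489 FPKM in vehicle and 0.712, 0.690, 1.03 and 0.737 FPKM in DAPA libraries, on 37 to 75 reads a library. The ratio of summed reads was 1.17 with a 95% exact binomial interval of 0.969 to 1.42, which covers counting error only. An exact two-sided permutation test gave p = 0.371, where the smallest p that 4 against 4 libraries allow is 0.0286. DAPA library 3 was the highest of all 8, and the remaining DAPA libraries lay within the vehicle range.

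Fdft1 (14137) encodes squalene synthase, the first step committed to sterols. It measured 4.13, 4.07, 4.49 and 3.88 FPKM in vehicle and 3.63, 4.48, 4.32 and 4.47 FPKM in DAPA libraries, with DAPA library 1 the lowest of all 8 and no DAPA library above the vehicle maximum. The ratio of means was 1.02 and the log2 change 0.02 (95% interval -0.13 to 0.17, limma-trend adjusted p = 0.872), and its sign depended on which library was left out. RefSeq places it in overlap with Ctsb, and no label says if reads were counted by strand.

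Of the enzymes from squalene onwards, Sqle (20775) encodes squalene epoxidase. It measured 0.810, 1.06, 0.903 and 1.17 FPKM in vehicle and 1.02, 0.896, 1.49 and 1.08 FPKM in DAPA libraries. DAPA library 3 stood above the rest and the other DAPA libraries lay among the vehicle values. The ratio of means was 1.14 and the log2 change 0.09 (95% interval -0.11 to 0.29, limma-trend adjusted p = 0.561), on a scale that understates changes at such low levels.

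Lss (16987) encodes lanosterol synthase, which closes the sterol rings, and it came closest to a separation of the groups. It measured 0.594, 0.647, 0.440 and 0.510 FPKM in vehicle and 0.636, 0.675, 0.711 and 0.672 FPKM in DAPA libraries, and 3 of the 4 DAPA libraries exceeded the vehicle maximum. The means were 0.548 ± 0.0915 and 0.673 ± 0.0309 FPKM (SD, n = 4), a ratio of 1.23, and the ratio of 485 to 396 summed reads was 1.22 (95% counting interval 1.07 to 1.40). The exact two-sided permutation test gave p = 0.0571. With no filter on low values limma-trend gave an unadjusted p of 0.0351 and an adjusted p of 0.163, so the gene was not called. In RefSeq it overlaps the long noncoding RNA gene 4930483K19Rik. A counting interval above 1 was not particular to Lss. It was also seen for Hmgcs1 (1.02 to 1.12), Srebf2 (1.03 to 1.11), Insig1 (1.01 to 1.14) and Cyp51 (1.03 to 1.17). The intervals of Sqle (0.961 to 1.33), Fdft1 (0.975 to 1.07) and Idi1 spanned 1. These intervals leave out the spread between libraries.

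Cyp51 (13121) encodes lanosterol 14-alpha-demethylase, the cytochrome P450 of the route. It measured 3.53, 3.80, 3.35 and 4.01 FPKM in vehicle and 4.62, 4.21, 3.60 and 3.69 FPKM in DAPA libraries. DAPA libraries 1 and 2 exceeded the vehicle maximum while the other two lay within the vehicle range. The ratio of means was 1.10 and the log2 change 0.10 (95% interval -0.06 to 0.27, limma-trend adjusted p = 0.387).

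Among the regulators, Srebf2 (20788) encodes SREBP-2 itself. It measured 8.28, 8.44, 9.43 and 7.88 FPKM in vehicle and 9.86, 8.71, 9.01 and 8.66 FPKM in DAPA libraries, where DAPA library 1 alone exceeded the vehicle maximum. The ratio of means was 1.06 and the log2 change 0.08 (95% interval -0.05 to 0.21, limma-trend adjusted p = 0.387). Processing of the protein, which sets its activity, is not seen in transcript levels.

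Insig1 (231070), the sterol-dependent retainer of SCAP, measured 8.66, 7.59, 6.60 and 8.35 FPKM in vehicle and 8.47, 9.79, 7.55 and 7.61 FPKM in DAPA libraries. DAPA library 2 was the highest of all 8, and the other DAPA libraries lay among the vehicle values. The ratio of means was 1.07 and the log2 change 0.09 (95% interval -0.10 to 0.28, limma-trend adjusted p = 0.542). Its partner Insig2 did not pass the test either, at 8.48 ± 0.393 and 8.83 ± 0.384 FPKM (SD, n = 4, limma-trend adjusted p = 0.531). In RefSeq, Insig1 overlaps the long noncoding RNA gene Gm35223.

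The intervals give the range of changes that these libraries leave possible. Across the 6 genes tested by limma-trend, the 95% intervals reached down to -0.13 and up to 0.29 on the log2(FPKM + 1) scale, which narrows the interval of a gene as low as Sqle. For the 3 lowest genes, Sqle, Idi1 and Lss, limma voom on recovered reads, a fit chosen after seeing the data that admits genes with at least 50 reads in all, gave wider intervals. The log2 changes of their reads were 0.15 (95% interval -0.31 to 0.61, limma voom adjusted p = 0.716), 0.23 (-0.32 to 0.77, adjusted p = 0.630) and 0.29 (-0.07 to 0.66, adjusted p = 0.293). That fit called none of the 8 and gave none an unadjusted p below 0.05, where 19.2% of its 14261 genes were called.

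The spread between libraries was above the value expected from counting alone in 14 of 16 combinations of gene and group. With 4 libraries, counting alone can also give a spread above its expected value, so a small excess for a single gene shows little. Hmgcs1, Insig1, Srebf2 and Fdft1 rested on 437 to 1437 reads a library, and in the DAPA group their coefficients of variation were 9.71%, 12.5%, 6.14% and 9.54%, against 3.22%, 4.16%, 2.75% and 3.37% from counting alone. For Sqle and Idi1, with 37 to 104 reads a library, counting alone would give 11.2% and 13.0% in the DAPA group, where 22.9% and 20.1% were seen. The vehicle libraries of Hmgcs1 and the DAPA libraries of Lss lay below the expected value, at 3.24% against 3.34% and at 4.59% against 9.08%.

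**Figure D2:**
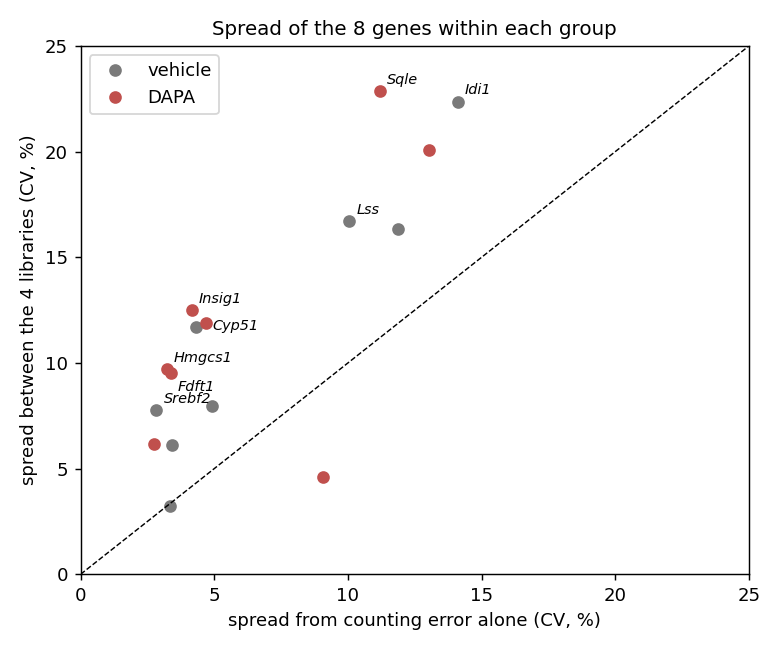
Coefficient of variation between the 4 libraries of a group (vertical axis, %) against that from counting error alone (horizontal axis, %) for the 8 genes, in vehicle (grey) and DAPA (red). Each name stands by the group with the wider spread. The dashed line marks equality. Of 16 points 14 lie above it, some only slightly, and Insig1 lies at 12.5% against 4.16% in the DAPA group.

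Over all the pathway lists outside the 8 genes, 12 of 66 tested genes were called, 6 higher and 6 lower, a share of 18.2% beside 18.4% of all genes tested. The lists as a whole were thus called at the background share. Elsewhere in the synthesis route, 1 gene passed the test. Of 14 other enzymes, all tested, 1 was higher and none lower, where 9.62% and 8.75% of all genes tested were called higher and lower. Their median log2 change was 0.04, beside 0.01 over all genes. The gene called was Hsd17b7, a sterol 3-ketoreductase, at 2.13, 1.97, 2.19 and 1.91 FPKM in vehicle and 2.87, 2.27, 2.70 and 2.51 FPKM in DAPA libraries, with no overlap. It rose 1.26-fold (log2 change 0.23, SE 0.069, limma-trend adjusted p = 0.0338). That call was lost (adjusted p from 0.0586 to 0.0955) without vehicle library 2 or 4 or DAPA library 1, 3 or 4.

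**Figure D3:**
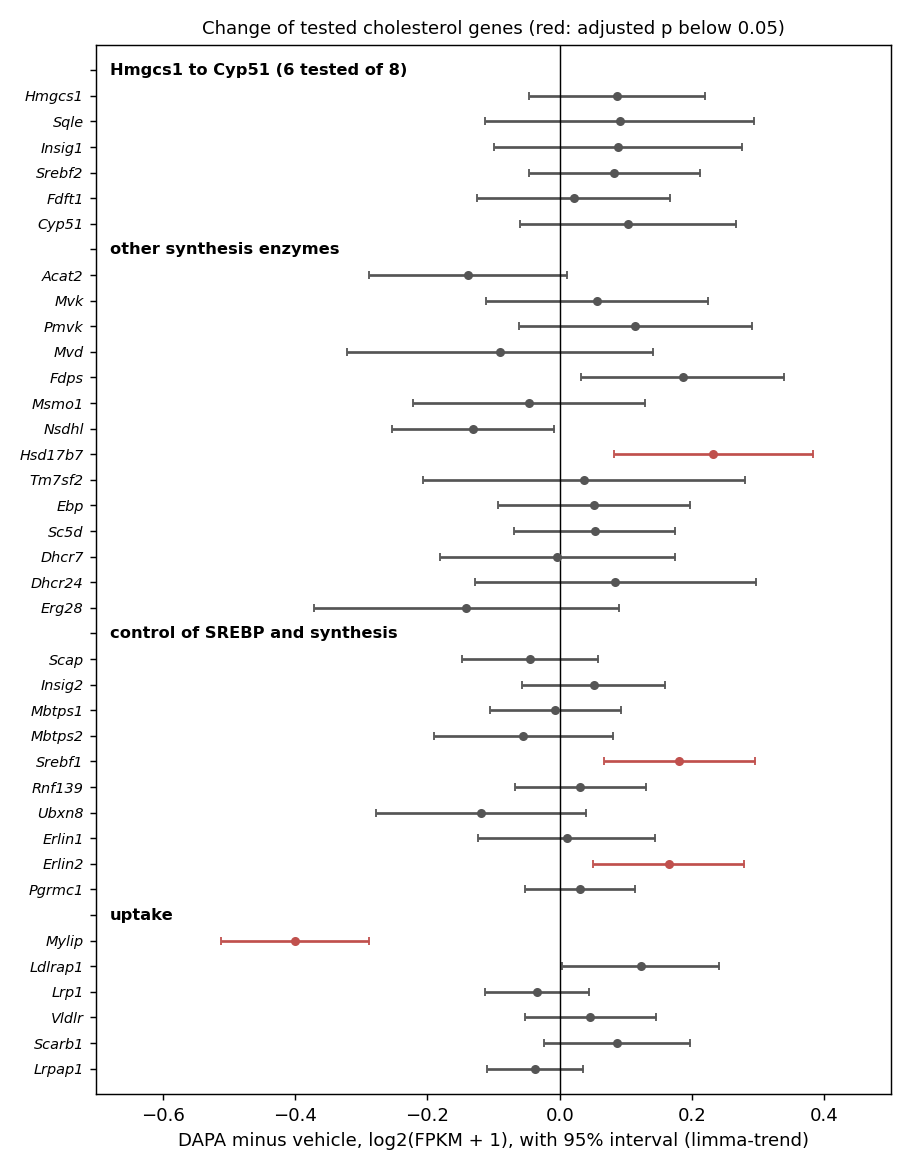
Difference of DAPA minus vehicle on the log2(FPKM + 1) scale (horizontal axis) with its 95% interval from limma-trend, for the tested genes of synthesis, of control of SREBP and synthesis, and of uptake (rows). Red marks an adjusted p below 0.05. The 6 tested of the 8 genes all span 0, while Mylip lies at -0.40.

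Among 10 genes that control SREBP or synthesis, all tested, 2 were higher and none lower. Srebf1, the relative of Srebf2 that chiefly drives fatty acid synthesis, measured 8.88, 8.61, 10.2 and 9.56 FPKM in vehicle and 10.6, 10.8, 10.5 and 10.8 FPKM in DAPA libraries, every DAPA library being above every vehicle library. It rose 1.15-fold (log2 change 0.18, limma-trend adjusted p = 0.0305), but the call was lost (0.0523 to 0.0779) without vehicle library 1 or 2 or any single DAPA library. RefSeq places Srebf1 in overlap with Rai1.

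Erlin2, a membrane protein of degradation at the endoplasmic reticulum, rose from 7.50 ± 0.38 to 8.53 ± 0.426 FPKM (SD, n = 4, limma-trend adjusted p = 0.0460) although the groups overlapped. Its call was lost (0.0751 to 0.116) without vehicle library 2, 3 or 4 or DAPA library 2, 3 or 4. With all 8 libraries it was also lost under upper quartile scaling (0.0545) and quantile normalization (0.0529). Scap, the escort of SREBP, measured 11.2 ± 0.401 and 10.9 ± 0.534 FPKM (SD, n = 4, limma-trend adjusted p = 0.571).

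In lipoprotein uptake the largest difference among the listed genes was at Mylip. It encodes a ubiquitin ligase that LXR induces and that limits uptake, and it measured 16.2, 15.7, 15.6 and 16.0 FPKM in vehicle against 12.3, 10.8, 11.4 and 12.9 FPKM in DAPA libraries. The groups were well apart. It fell 1.34-fold (log2 change -0.40, SE 0.052, limma-trend adjusted p = 1.2e-04), and it was the only 1 of 6 uptake genes, all tested, to be called.

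**Figure D4:**
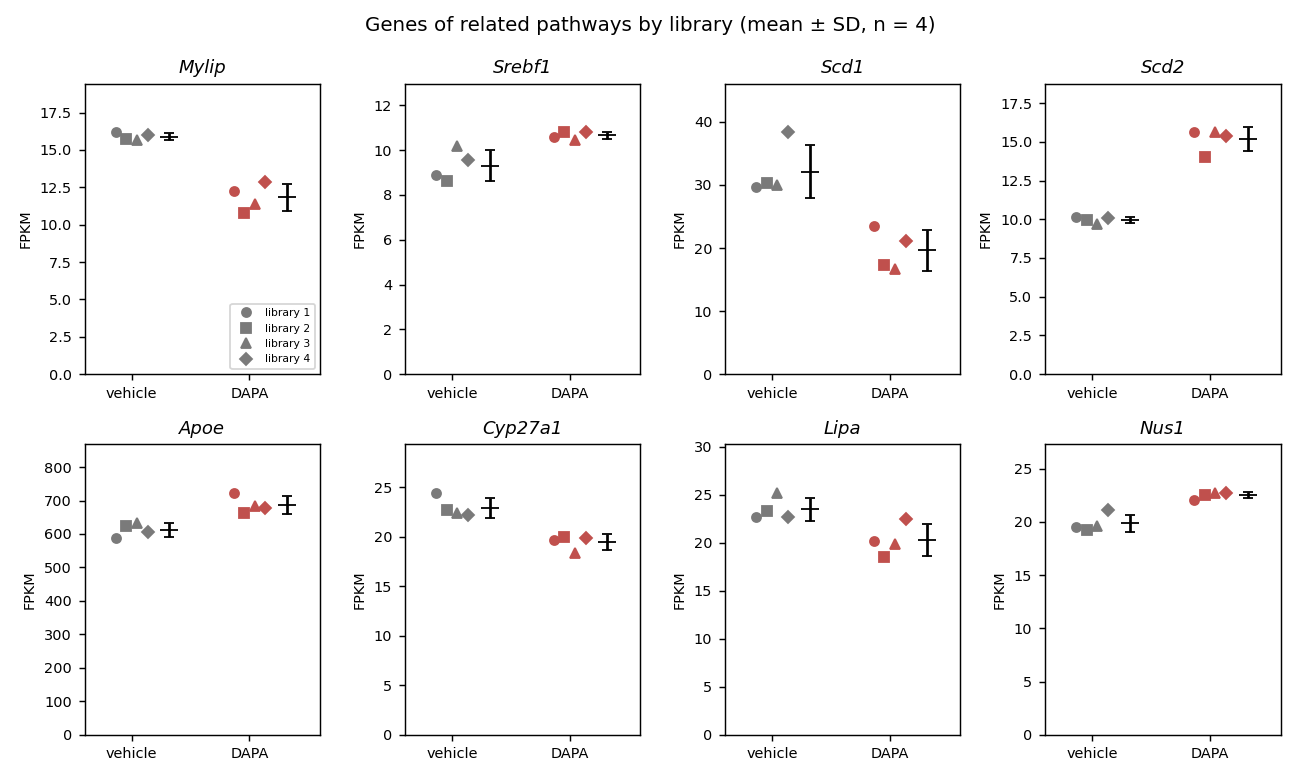
FPKM (vertical axes, each from 0) of Mylip, Srebf1, Scd1, Scd2, Apoe, Cyp27a1, Lipa and Nus1 in the 4 vehicle (grey) and 4 DAPA libraries (red), with mean ± SD (n = 4). All 8 are genes called by limma-trend, and Erlin2, called with overlapping groups, is not shown. The groups are apart in all 8 panels, most clearly for Mylip, Scd1 and Scd2. For Lipa the lowest vehicle library lies at 22.7 FPKM and the highest DAPA library at 22.5 FPKM. Among all genes tested the groups did not overlap in 22.1%.

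Of genes that move and store cholesterol inside cells, 10 were tested of 11 listed, and 2 fell and none rose, with a median log2 change of -0.10. Lipa, the lysosomal acid lipase that frees cholesterol from its esters, fell from 23.5 ± 1.19 to 20.3 ± 1.65 FPKM (limma-trend adjusted p = 0.0227). Npc2, which hands that cholesterol to the lysosomal membrane, fell from 51.7 ± 2.53 to 46.9 ± 1.37 FPKM (limma-trend adjusted p = 0.0280). The Lipa call was lost (0.0508 to 0.0663) without vehicle library 3 or DAPA library 1, 2 or 3, and the Npc2 call (0.0521 to 0.0864) without vehicle library 2 or 4 or DAPA library 2, 3 or 4.

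Of 8 genes of efflux and its control 1 rose and 1 fell. Apoe, the apolipoprotein that accepts exported cholesterol, rose from 612 ± 20.4 to 687 ± 26.03 FPKM (limma-trend adjusted p = 0.0038). Cyp27a1, which makes 27-hydroxycholesterol, fell from 22.9 ± 1.04 to 19.5 ± 0.78 FPKM (limma-trend adjusted p = 0.0031). Macrophages are a known source of both transcripts. Of 8 macrophage markers 3 were higher and 2 lower, with overlapping sums of 399 to 455 FPKM and 389 to 424 FPKM. The part of macrophages in the Apoe and Cyp27a1 results was not tested.

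Where the mevalonate route branches to other products, 1 of 8 genes rose and 1 fell. Nus1, a subunit of the enzyme for dolichol, rose from 19.9 ± 0.821 to 22.5 ± 0.304 FPKM (limma-trend adjusted p = 0.0074). Pdss1, which builds the side chain of coenzyme Q, fell from 5.04 ± 0.57 to 4.06 ± 0.201 FPKM (limma-trend adjusted p = 0.0257), a call lost (0.0700 to 0.0743) without vehicle library 1 or 3 or DAPA library 1.

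Of 10 tested fatty acid genes that SREBP-1 is known to drive, of 11 listed, 1 rose and 1 fell, and these were the desaturases Scd1 and Scd2. Scd1 measured 29.6, 30.4, 30.1 and 38.4 FPKM in vehicle and 23.4, 17.3, 16.7 and 21.1 FPKM in DAPA libraries, 1.64-fold lower (limma-trend adjusted p = 4.0e-04). Scd2 measured 10.1, 9.95, 9.66 and 10.1 FPKM in vehicle and 15.6, 14.0, 15.6 and 15.4 FPKM in DAPA libraries, 1.52-fold higher (limma-trend adjusted p = 2.1e-06). The directions of the 2 genes were opposite. They are close paralogs, so reads could be split between them, which was not tested. Adipocytes express Scd1, and 10 of 11 tested adipocyte markers were lower in the same libraries; their part in the Scd1 result was not tested. Fasn, fatty acid synthase, measured 5.79 ± 0.35 and 6.20 ± 0.928 FPKM (SD, n = 4, limma-trend adjusted p = 0.583).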

How the data were processed

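Heart mRNA was profiled in 8 libraries, 4 per group. Per the labels' protocols, TRIzol RNA went into stranded TruSeq mRNA libraries, read as paired ends and trimmed with Trimmomatic. The submitters' processing notes list HISAT2, SAMtools, StringTie, Cufflinks, HTSeq and DESeq without roles or versions, and the build GRCh38, which is human, although the gene identifiers are those of mouse. No coordinates of measured genes are therefore given. The FPKM values were computed by the authors for each library. The fold (ratio of DAPA over vehicle) and q-value columns are the authors' deposited comparison.

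Genes with a mean of 1 FPKM or more in a group entered a limma-trend fit of log2(FPKM + 1) on group alone (R 4.3.3 with limma 3.58.1), with Benjamini-Hochberg adjustment over 11496 genes and a threshold of 0.05. Fold changes on that scale understate those of low genes, so ratios of mean FPKM stand beside those of the 8 genes. FPKM values were whole multiples of a step within each gene, which returned whole reads for 17356 of 17356 genes above 0 (tolerance 0.0001 reads). The smallest whole numbers that fit were taken. A gene above 0 in a single library therefore always fits, and reads that share a factor would come out too low. The recovered reads gave depth, counting intervals at 95% (exact binomial, counting error only) and the limma voom alternatives, with TMM factors. On simulated reads limma-trend made somewhat more false calls than its nominal rate, and voom did not, so calls near the threshold are given with their alternatives. The first single simulated draw exceeded the limit set for false calls, and 25 draws were then averaged.

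Members and lists were chosen with earlier results of these data known. Named are the 8 genes, list genes past the threshold, and Insig2, Srebf1 and Scap. Fasn was added after its values were seen. Some genes of the lists are not reported here and are in none of the list counts. Alternatives were other pseudocounts, filters, scalings and variance models, voom, a replicate block and leaving out each library. Promoters came from RefSeq (GRCm38.p6).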

Additional observations from a re-analysis of the deposited data

Results flagged for a closer look

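A library stood far from the other 3 of its group in 4 of the 44 gene and group combinations examined (22 genes in 2 groups). Chance flags about 1 in 20. Idi1 was 1.03 FPKM in DAPA library 3, where the other DAPA libraries lay between 0.690 and 0.737 FPKM. Cyp27a1 was 18.3 FPKM in DAPA library 3, against 19.7 to 20.0 FPKM in the others. Scd1 was 38.4 FPKM in vehicle library 4, against 29.6 to 30.4 FPKM in the others. Scd2 was 14.0 FPKM in DAPA library 2, against 15.4 to 15.6 FPKM in the others.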

How the results depend on the processing

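None of the 8 genes was called in an alternative that tested it. Of the 18 alternatives, all tested Hmgcs1, Insig1 and Srebf2, 17 tested Fdft1 and Cyp51, 16 tested Sqle, and 2 tested Idi1 and Lss. The log2 changes of Hmgcs1, Sqle, Insig1, Srebf2 and Cyp51 kept their direction in each alternative that could test them, while that of Fdft1 ranged from -0.0038 to 0.0778 when single libraries were left out and changed sign in 3 of them. Of the 12 pathway genes called among 66 tested, 6 were called in every alternative (Mylip, Apoe, Cyp27a1, Nus1, Scd1 and Scd2) and 6 were lost in some. Other pathway genes were gained in some alternatives. Npc1, lower with DAPA, was called in the voom fits (limma voom adjusted p = 0.0252 over genes with at least 50 reads). Stard4 was gained in limma with no trend, and Stard3, Erg28 and Fdps when single libraries were left out. With no filter on low values the pathway count was 7, without Erlin2, Hsd17b7, Lipa, Pdss1 and Srebf1, and the cause was not tested. The count lay between 7 and 10 when single libraries were left out. Erlin2 was also lost under upper quartile scaling and quantile normalization, and Npc2 in limma with no trend (adjusted p = 0.0668). Same-numbered libraries did not deviate together (correlations from -0.055 to 0.014). DAPA library 3 correlated equally, at 0.014 after rounding, with vehicle libraries 2 and 3. No other library correlated best with its own number. No pairing by number was thus seen, though this check cannot show that the numbers carry no meaning. With the replicate number as a block, 1764 genes in all were called in place of 2112, 0 of the 8 genes and 9 pathway genes, without Erlin2, Pdss1 and Srebf1. Depth limits Idi1, Lss and Sqle most.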

Other observations

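Within the DAPA group the 8 genes did not share a highest library. Hmgcs1, Srebf2 and Cyp51 were highest in DAPA library 1, Sqle, Idi1 and Lss in DAPA library 3, and Insig1 and Fdft1 in DAPA library 2. DAPA library 3 was at the same time the lowest of its group for Hmgcs1, Insig1 and Cyp51. Fasn, like Hmgcs1, was highest in DAPA library 1, at 7.18 FPKM.

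Genes outside the set were ranked by the distance of their centred log2(FPKM + 1) profile over the 8 libraries from the mean profile of the 8 genes. Of 7471 genes with a mean of at least 5 FPKM, the nearest were Polr2m (distance 0.0483), Ube2d3 (0.05003), Wsb2 (0.0521), Utrn (0.0529) and Hspb1 (0.0537). All 5 had a higher mean with DAPA, with log2 changes of 0.06 to 0.10. Of these only Hspb1 was called (limma-trend adjusted p = 0.0127), where 18.4% of all genes tested were called. The mean profile of the 8 genes was itself higher in every DAPA library than in any vehicle library. The ranking therefore favours genes higher with DAPA, so the direction of these 5 is no separate result. The 8 genes lay farther from their own mean profile, from 0.140 for Lss to 0.376 for Insig1.

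Of the remaining marker lists, 5 of 8 epicardial and mesothelial markers were higher with DAPA and none lower (summed level 18.9 to 35.5 FPKM against 40.9 to 54.5 FPKM). Of 6 tested Schwann cell and neuron markers 5 were higher and none lower (5.60 to 7.51 FPKM against 10.7 to 11.1 FPKM). Immediate early genes were higher in 5 of 7 tested, with none lower (149.7 to 155.8 FPKM against 165.8 to 180.0 FPKM). Of 8 fibroblast markers 1 was higher and 3 lower, with overlapping sums (1754 to 1859 FPKM and 1666 to 1812 FPKM). In ventricular markers 1 of 8 was higher and 2 lower.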
